A study of Macaca mulatta with 4 samples.

Results

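The 9 genes described here carry out or control growth arrest and apoptosis, and several of them are known targets of the tumour suppressor p53: BTG1, CDKN1A, MDM2, GADD45B, BCL2, MCL1, PMAIP1, BCL2L11 and BAX. They were chosen by symbol, with earlier results of these data known, and all 9 were found among the 15354 gene rows of the series. Their RNA was measured by single-cell RNA sequencing in blood mononuclear cells of rhesus macaque, in a study of islets made from human pluripotent stem cells and transplanted into monkeys. The Pre-IS library was drawn ahead of immunosuppression, the Post-IS library after it but ahead of the transplant, and the 4 wpt and 8 wpt libraries at 4 and 8 weeks post-transplantation. Each of these groups was 1 library, and the labels neither name the drugs nor say if 1 animal or several gave the blood. Time, animal and library can therefore not be told apart.

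Damage or loss of growth signals can stabilise the transcription factor p53, which switches on genes that halt the cell cycle and genes that lower the barrier to cell death. MDM2 is both a p53 target and the ligase that degrades p53, so the pathway shuts itself off. Whether a lymphocyte then dies is largely set by the BCL2 family. BCL2 and MCL1 hold the pore-forming protein BAX in check, and the BH3-only proteins PMAIP1 (NOXA) and BCL2L11 (BIM) bind the guardians and free it. The roles given here are those known from human and mouse, and RNA levels do not report the activity of these proteins.

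The tables held 6993 cells under 9 cell labels, from 603 cells in the Post-IS library to 2580 at 8 wpt, with 791030 to 6910432 UMIs (unique molecular identifiers, the count of distinct RNA molecules read). Lymphocytes (T, NK, B, naive B and proliferating NK and T cells) were 23.1% of labelled cells at Post-IS (exact binomial 95% interval 19.8 to 26.6), against 81.3% at Pre-IS (79.5 to 83.0), and were 70.6% at 4 wpt and 83.0% at 8 wpt. The Post-IS library held 115 T cells, 9 NK cells, 12 B cells and 1 naive B cell. Member levels at Post-IS could therefore be compared only in T cells, CD14+ monocytes (329 cells) and MS4A7+ monocytes (131 cells). The marker list of each label was highest under that label in every library, counting B and naive B cells, which share a list, as 1 label, except that Post-IS T cells had 4717 UMIs of the 8 T cell markers per 1000000 and 2 proliferating cells had 4781. For the platelet label, 12 cells at 4 wpt, this rested on 3 UMIs of 1 of the 8 platelet markers, 276 per 1000000. Those cells also had 5895 per 1000000 of the CD14+ monocyte markers, so their markers hardly bear out the label. Between 0 and 12 cell barcodes were shared by any pair of libraries.

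A level is the UMIs of a gene summed over the cells of 1 label in 1 library, divided by all UMIs of those cells and given per 1000000 UMIs (CPM). Brackets after a level or ratio give an exact 95% interval. With 1 library per group there was no test between groups, and these intervals cover counting error alone. A member is called higher or lower where its CPM ratio passed 1.5-fold with at least 20 UMIs over both libraries and at least 50 cells in each. The same rule was run over all genes, and the share of them past it is given beside the members' counts. UMI counts were not scaled by transcript length, so levels are compared between cells and libraries and not between genes.

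BTG1, CDKN1A and MDM2 were higher at Post-IS than at Pre-IS in CD14+ monocytes, and so was MCL1, while PMAIP1 was lower. In T cells BCL2 and BTG1 were higher, and in MS4A7+ monocytes BTG1 was higher and BAX lower. Several further members passed 1.5-fold with intervals that held 1. In CD14+ monocytes 7 members reached 20 UMIs, of which 4 were higher and 1 lower, against 16.6% of all 5152 measured genes higher and 13% lower. In T cells 4 of 8 measured members were higher and 0 lower, against 14.4% of 6612 genes higher and 28.4% lower. In MS4A7+ monocytes 2 of 5 were higher and 1 lower, against 18.4% of 2055 genes higher and 12.9% lower. The median log2 ratio of the measured members was 0.64 in T cells, 1.07 in CD14+ monocytes and 0.35 in MS4A7+ monocytes, beside medians of 0.00, 0.04 and 0.02 over all measured genes in those classes. Members below 20 UMIs are not in these counts, and a member is more easily measured where it is high. The members were chosen with earlier results of these data known, so their excess over all genes can come from that choice.

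**Figure D1:**
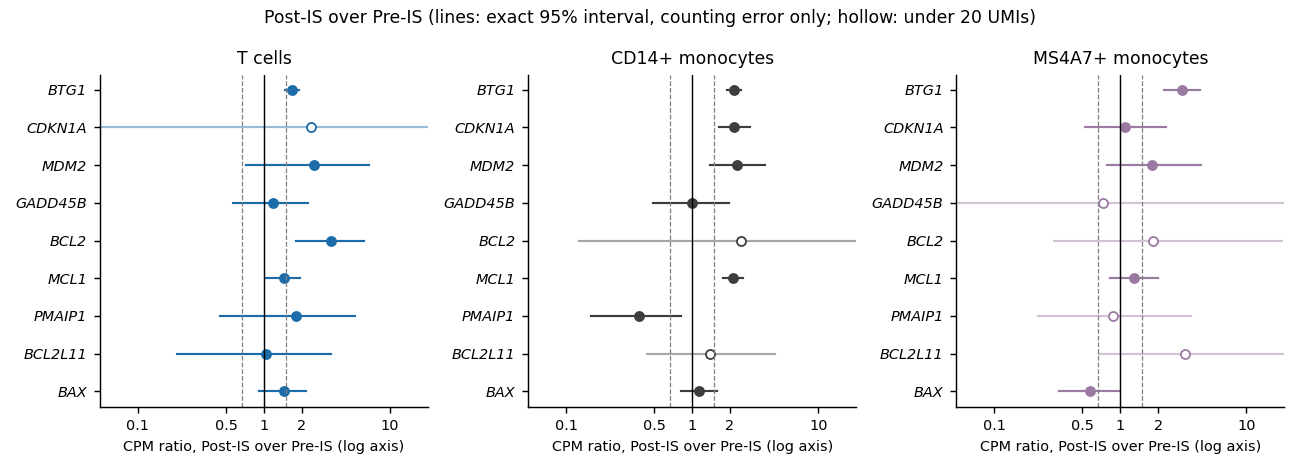
CPM ratio of Post-IS over Pre-IS for each member (log axis) in T cells, CD14+ monocytes and MS4A7+ monocytes, with exact 95% intervals for counting error as lines, hollow points for members under 20 UMIs and dashed lines at 1.5-fold. BTG1 lies right of the upper dashed line in all 3 classes, at 1.67, 2.15 and 3.06, and BCL2 lies farthest right in T cells, at 3.42.

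**Figure D2:**
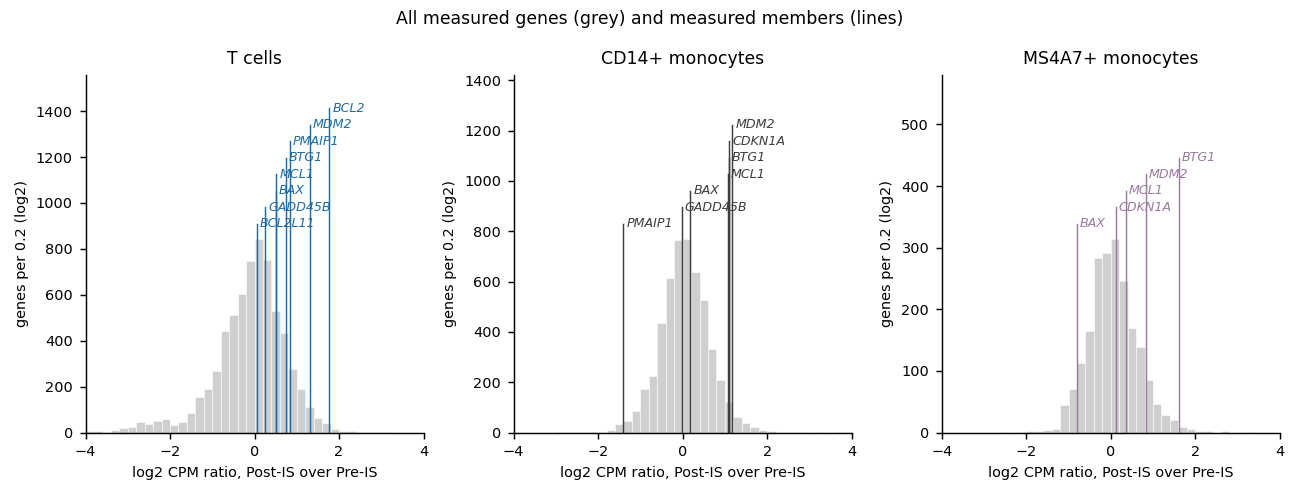
Histograms of the log2 CPM ratio, Post-IS over Pre-IS, over all measured genes (grey, genes per 0.2 log2), with a line at each measured member. In CD14+ monocytes 4 members form a cluster just above 1 on the log2 scale, and PMAIP1 stands alone on the left.

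BTG1 is an antiproliferative cofactor that helps to keep resting lymphocytes quiet. In T cells it had 1253 CPM at Pre-IS (1691 UMIs), 2087 CPM at Post-IS (300 UMIs), 1208 CPM at 4 wpt (3832 UMIs) and 1133 CPM at 8 wpt (2531 UMIs). The Post-IS level stood above the others, with an interval of 1858 to 2337 CPM that lay clear of theirs, and the other 3 libraries were close to each other. Post-IS over Pre-IS, the ratio was 1.67 (1.47 to 1.89), at percentile 90.1 of the genes measured in T cells. The 300 Post-IS UMIs came from 103 of 115 cells, and the 5 cells with most held 15% of them. When every cell was thinned to 500 UMIs, 58.7% of Post-IS T cells still had a BTG1 UMI, against 40.6% of Pre-IS T cells (unthinned 89.6% and 74.8%, with 6 Post-IS cells and 0 Pre-IS cells too shallow to use).

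The make-up of the T cell label differed between these libraries. A UMI of GZMB, PRF1 or NKG7, cytotoxic granule genes, was found in 18.3% of Post-IS T cells and 44.7% of Pre-IS T cells, and the 8 NK cell markers summed to 1120 CPM at Post-IS (FCGR3 at 0) and 3807 CPM at Pre-IS. Among T cells without such a UMI, a subset chosen after the data were seen, the BTG1 ratio was 1.48 and no longer passed 1.5-fold. The 8 CD14+ monocyte markers summed to 299 CPM in Post-IS T cells (VCAN and FCN1 at 0) and 150 CPM in Pre-IS T cells (FCN1 at 0). Among T cells without a UMI of those markers the BTG1 ratio was 1.83, as large as in all T cells. Such a UMI was found in 29.6% of Post-IS and 20.45% of Pre-IS T cells. It is more easily found in deeper cells, so this subset also selects on depth. Mitochondrial genes took 0.869% of the UMIs of Post-IS T cells and 0.491% of those of Pre-IS T cells, and their part in the result was not tested.

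In CD14+ monocytes BTG1 had 710 CPM at Pre-IS (389 UMIs), 1525 CPM at Post-IS (684 UMIs), 595 CPM at 4 wpt (700 UMIs) and 518 CPM at 8 wpt (538 UMIs). Post-IS was again the highest library, at 2.15 times the Pre-IS level (1.89 to 2.44). In MS4A7+ monocytes, the nonclassical class, BTG1 had 460 CPM at Pre-IS (46 UMIs), 1407 CPM at Post-IS (194 UMIs), 474 CPM at 4 wpt (226 UMIs) and 371 CPM at 8 wpt (54 UMIs), and the ratio of Post-IS over Pre-IS was 3.06 (2.21 to 4.32). Monocyte levels came nearest to those of T cells at Post-IS: CD14+ monocytes had 1.37-fold less BTG1 than T cells there, against 1.77-fold, 2.03-fold and 2.19-fold less at Pre-IS, 4 wpt and 8 wpt. Thinned to 500 UMIs, the share of CD14+ monocytes with a BTG1 UMI was 53.4% at Post-IS and 28.5% at Pre-IS, with 52 Post-IS cells too shallow to use. The 8 platelet markers summed to 285 CPM in Post-IS CD14+ monocytes (none at 0) and 31.0 CPM in Pre-IS ones (PF4, GP9 and ITGA2B at 0), and to 138 and 19.99 CPM in MS4A7+ monocytes of those libraries. In CD14+ monocytes they were at 28.1 CPM at 4 wpt and 217.5 CPM at 8 wpt. Mitochondrial genes took 1.24% of UMIs in Post-IS and 0.792% in Pre-IS CD14+ monocytes, and 2.29% and 1.497% in MS4A7+ monocytes. The part of either measure in the monocyte levels of any member was not tested.

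BTG1 also separated the lymphocyte labels. Naive B cells had 1702 CPM at Pre-IS (1505 to 1918) and 1695 CPM at 8 wpt (1509 to 1899), and the other B cells had 392 CPM (342 to 446) and 305 CPM (253 to 364) in those libraries. Within a library that was 4.34 times as much in naive B cells at Pre-IS (3.63 to 5.21) and 5.57 times at 8 wpt (4.50 to 6.92). At 4 wpt the 14 naive B cells had 731 CPM (506 to 1022), under their level at Pre-IS and 8 wpt, and 2.85 times the 257 CPM of B cells. NK cells held 2.15-fold less BTG1 than T cells at Pre-IS, 2.38-fold less at 4 wpt and 3.11-fold less at 8 wpt.

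CDKN1A encodes p21, the cyclin-dependent kinase inhibitor through which p53 stops the cell cycle. Among labels with at least 50 cells its RNA was found mainly in monocytes and B cells. T cells held 4, 1, 10 and 9 UMIs at Pre-IS, Post-IS, 4 wpt and 8 wpt, which is 2.96 to 6.96 CPM, and naive B cells held 0 UMIs at Pre-IS and 1 UMI at 8 wpt. In CD14+ monocytes it had 151 CPM at Pre-IS (83 UMIs), 325 CPM at Post-IS (146 UMIs), 88.5 CPM at 4 wpt (104 UMIs) and 110 CPM at 8 wpt (114 UMIs). Post-IS was the highest library, with an interval of 275 to 383 CPM that overlapped none of the others, and the ratio to Pre-IS was 2.15 (1.63 to 2.85). After thinning to 500 UMIs, 11.9% of Post-IS and 6.64% of Pre-IS CD14+ monocytes had a CDKN1A UMI, against 0% of T cells in both libraries. The median depth was 1196 UMIs in Post-IS and 2058 in Pre-IS CD14+ monocytes, and 1257 in Post-IS and 1526 in Pre-IS T cells.

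In MS4A7+ monocytes CDKN1A had 140 CPM at Pre-IS (14 UMIs), 152 CPM at Post-IS (21 UMIs), 136 CPM at 4 wpt (65 UMIs) and 68.7 CPM at 8 wpt (10 UMIs), and the ratio of Post-IS over Pre-IS was 1.09 with an interval of 0.528 to 2.31. That interval holds the ratio seen in CD14+ monocytes, and the difference between the 2 monocyte classes was not tested. B cells had 75.9 CPM at Pre-IS, 70.5 CPM at 4 wpt and 44.6 CPM at 8 wpt.

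MDM2, the p53 ligase, was higher at Post-IS in CD14+ monocytes, with 49.3 CPM at Pre-IS (27 UMIs), 111.5 CPM at Post-IS (50 UMIs), 80.0 CPM at 4 wpt (94 UMIs) and 46.2 CPM at 8 wpt (48 UMIs). This was 2.26 times as much at Post-IS as at Pre-IS (1.39 to 3.76). The ratios in T cells, 2.47 (0.721 to 6.84, on 5 and 19 UMIs), and MS4A7+ monocytes, 1.77 (0.785 to 4.38, on 22 and 9 UMIs), also passed 1.5-fold but with intervals that held 1, and the T cell ratio was 1.36 among cells without a monocyte marker UMI. In MS4A7+ monocytes the MDM2 levels of 4 wpt and Post-IS overlapped, with 182.5 CPM at 4 wpt (146 to 225) and 160 CPM at Post-IS (100 to 242), whereas the level at 8 wpt was 41.2 CPM (15.1 to 89.7).

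GADD45B, a stress-induced protein that acts on MAP kinase signalling and is also induced by NF-kB, was highest under the T or NK label in each library, among labels of at least 50 cells. T cells had 64.5, 76.5, 55.2 and 87.7 CPM at Pre-IS, Post-IS, 4 wpt and 8 wpt, and NK cells had 80.2, 65.8 and 111 CPM at Pre-IS, 4 wpt and 8 wpt. CD14+ monocytes came closest at 4 wpt, with 47.6 CPM. Their interval overlapped that of T cells there, and also at Pre-IS and Post-IS. Their ratio to T cells was 0.495 (0.219 to 1.17) at Post-IS and 0.863 (0.627 to 1.17) at 4 wpt, with intervals that held 1. At Pre-IS that ratio was 0.5945 (0.3505 to 0.966), and its interval did not hold 1. Post-IS over Pre-IS, GADD45B had ratios of 1.19 (0.572 to 2.23) in T cells and 0.989 (0.490 to 1.97) in CD14+ monocytes, whose intervals leave room for a change past 1.5-fold either way. The 17 Post-IS UMIs in CD14+ monocytes lay in 8 cells, 7 of them in 1 cell.

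BCL2, the survival protein of resting lymphocytes, was lower in CD14+ monocytes than in T cells of every library. T cells had 32.6 CPM at Pre-IS (44 UMIs), 111 CPM at Post-IS (16 UMIs), 47.3 CPM at 4 wpt (150 UMIs) and 39.8 CPM at 8 wpt (89 UMIs), and CD14+ monocytes had 1.82 to 4.46 CPM in the 4 libraries (1 to 4 UMIs). The Post-IS interval in T cells, 63.6 to 181 CPM, lay above those of the other 3 libraries, which reached from 23.7 to 55.5 CPM. With a ratio of 3.42 at Post-IS over Pre-IS (1.80 to 6.17), BCL2 stood at percentile 99.5 of the genes measured in T cells. The ratio ranged from 3.16 to 5.34 over the 8 other settings tried, the largest with cells thinned to 500 UMIs. The 16 Post-IS UMIs lay in 13 of 115 T cells, and the 5 cells with most held 50% of them. B cells had 22.4, 35.2 and 9.91 CPM at Pre-IS, 4 wpt and 8 wpt, and MS4A7+ monocytes had 19.99 to 36.3 CPM on 2 to 11 UMIs. In thinned cells 7.34% of Post-IS and 1.55% of Pre-IS T cells had a BCL2 UMI, and 0% of CD14+ monocytes did in any library.

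MCL1, a short-lived guardian on which neutrophils and lymphocytes depend in mice, was higher at Post-IS in CD14+ monocytes: 383 CPM at Pre-IS (210 UMIs), 807 CPM at Post-IS (362 UMIs), 374 CPM at 4 wpt (440 UMIs) and 299 CPM at 8 wpt (311 UMIs). Post-IS had 2.11 times the Pre-IS level (1.77 to 2.51), and the share of thinned cells with an MCL1 UMI was 29.6% at Post-IS and 13.7% at Pre-IS. In T cells MCL1 had 243 CPM at Pre-IS (217 to 271), 348 CPM at Post-IS (258 to 459), 329 CPM at 4 wpt (309 to 349.5) and 329 CPM at 8 wpt (306 to 354). Post-IS over Pre-IS was 1.43 there (1.04 to 1.93), short of 1.5-fold, although it passed at 1.52 with each cell weighted equally and with cells thinned. In MS4A7+ monocytes the ratio was 1.29 (0.836 to 2.005).

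The ratio of MCL1 to BCL2 UMIs within a library does not depend on its depth, and is compared here between libraries only. Post-IS T cells had 3.13 MCL1 UMIs for each BCL2 UMI (1.75 to 5.88), against 7.46 at Pre-IS (5.43 to 10.5), and the ratio was 6.95 at 4 wpt and 8.26 at 8 wpt. The same ratio in CD14+ monocytes rested on 1 to 4 BCL2 UMIs and is not given.

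PMAIP1, the p53-induced BH3-only protein that neutralises MCL1, was lower at Post-IS in CD14+ monocytes, with 52.9 CPM at Pre-IS (29 UMIs), 20.1 CPM at Post-IS (9 UMIs), 25.5 CPM at 4 wpt (30 UMIs) and 26.9 CPM at 8 wpt (28 UMIs). The Pre-IS library was the high one, and the 3 later libraries had similar levels. Relative to Pre-IS the ratio was 0.379 (0.158 to 0.823), at percentile 1.32 of the measured genes. MCL1 and PMAIP1 stood on opposite sides in this class, with 40.2 MCL1 UMIs for each PMAIP1 UMI at Post-IS (20.9 to 88.7), against 7.24 at Pre-IS (4.90 to 11.1). In T cells PMAIP1 had 27.8 CPM at Post-IS on 4 UMIs and 15.6 CPM at Pre-IS on 21 UMIs, and the ratio of 1.79 had an interval of 0.447 to 5.30.

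BCL2L11, the BH3-only protein through which lymphocytes die when cytokines run out or glucocorticoids act, was sparse everywhere. T cells had 20 CPM at Pre-IS (27 UMIs), 20.9 CPM at Post-IS (3 UMIs), 17.7 CPM at 4 wpt (56 UMIs) and 8.50 CPM at 8 wpt (19 UMIs). Its ratio of Post-IS over Pre-IS was 1.04 with an interval of 0.203 to 3.39, wide enough to hold a 3-fold change. In the monocyte classes it stayed below 20 UMIs over both libraries, with 8 UMIs at Post-IS and 7 at Pre-IS in CD14+ monocytes.

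BAX, the effector that perforates mitochondria, was lower at Post-IS in MS4A7+ monocytes, with 329.8 CPM at Pre-IS (33 UMIs), 189 CPM at Post-IS (26 UMIs), 122 CPM at 4 wpt (58 UMIs) and 172 CPM at 8 wpt (25 UMIs). At Post-IS over Pre-IS that was a ratio of 0.572 (0.328 to 0.986), and 0.666 with cells thinned to 500 UMIs. The Pre-IS level was the highest, although its interval overlapped those of Post-IS and 8 wpt. The 3 later libraries overlapped each other. CD14+ monocytes had 172 CPM at Post-IS and 151 CPM at Pre-IS, a ratio of 1.13 (0.820 to 1.57). T cells had 181 CPM at Post-IS (26 UMIs) and 127 CPM at Pre-IS (171 UMIs), a ratio of 1.43 (0.907 to 2.17) that was 0.951 among cells without a monocyte marker UMI. NK cells had 1.77 times the BAX level of T cells at Pre-IS, 1.89 times at 4 wpt and 1.67 times at 8 wpt.

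**Figure D3:**
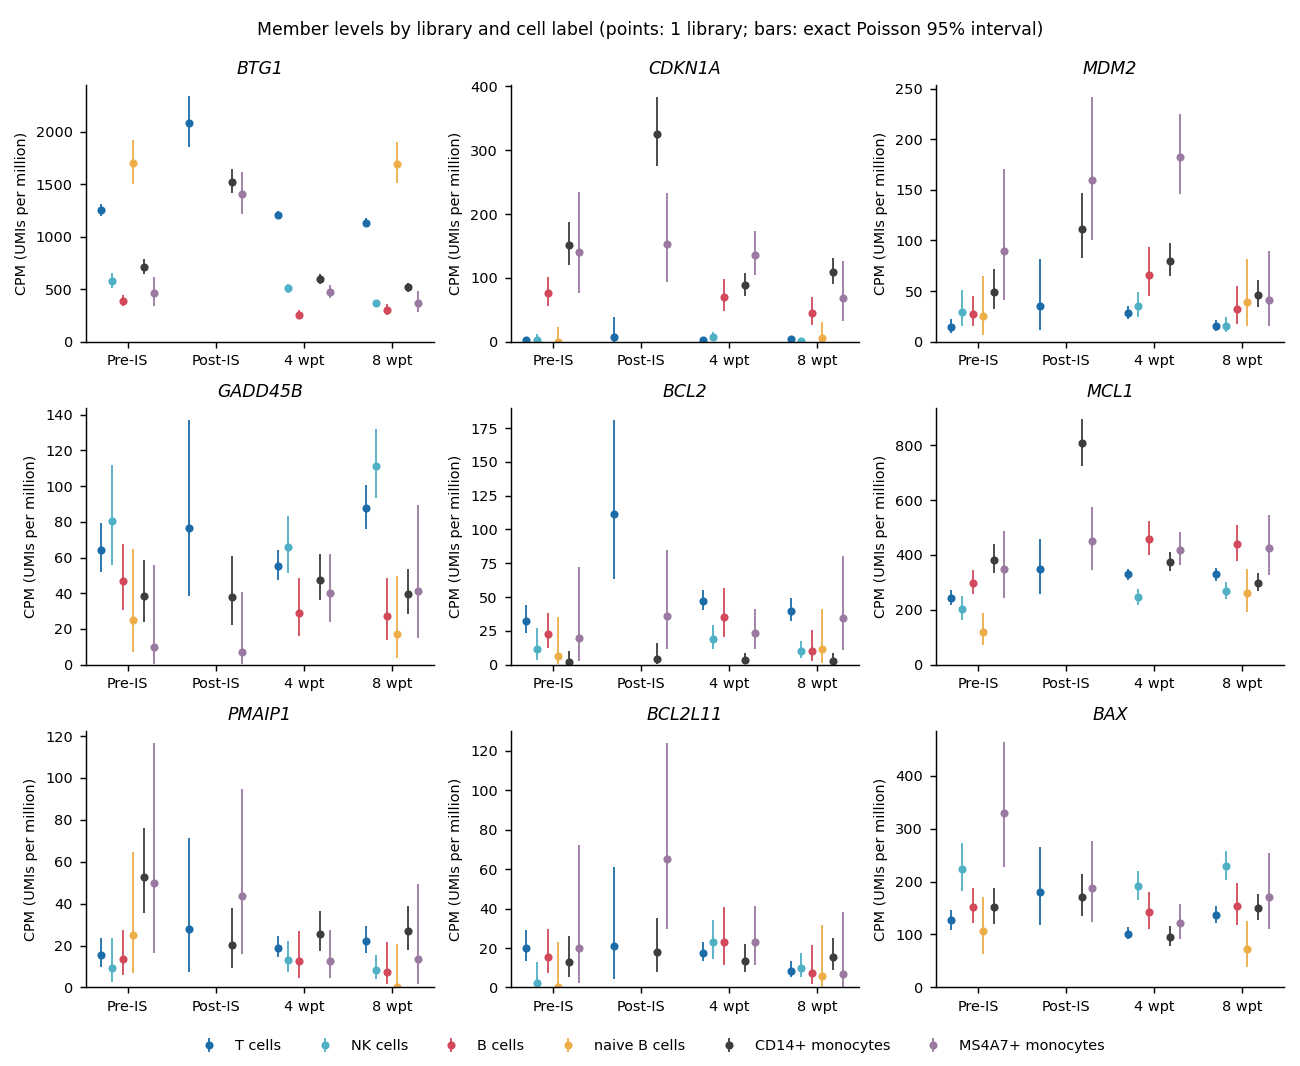
Level of each member in CPM (linear axes, scaled per gene) by library and cell label, for labels with at least 50 cells, with exact Poisson 95% intervals as bars. Post-IS stands highest for BTG1 under the 3 labels it shows there, for CDKN1A and MCL1 in CD14+ monocytes and for BCL2 in T cells.

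The libraries taken after transplantation were set against Post-IS. These ratios use the same Post-IS library as the ratios above, so the 2 sets are not independent. In CD14+ monocytes 4 of 8 measured members were lower at 4 wpt, against 15.4% of all genes, and 4 of 8 were lower at 8 wpt, against 13.5%. BTG1, CDKN1A and MCL1 were lower both times, with ratios of 0.391 (0.351 to 0.435), 0.272 (0.209 to 0.352) and 0.464 (0.403 to 0.535) at 4 wpt and 0.340 (0.303 to 0.381), 0.337 (0.262 to 0.434) and 0.371 (0.318 to 0.433) at 8 wpt. BAX was lower at 4 wpt, at 0.560 (0.416 to 0.758), and had a ratio of 0.875 at 8 wpt. MDM2 had a ratio of 0.717 (0.504 to 1.03) at 4 wpt and was lower at 8 wpt, at 0.414 (0.273 to 0.629). No measured member was higher in this class at 4 wpt, where 14.1% of all genes were, or at 8 wpt, where 14% were.

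In T cells 3 of 8 measured members were lower at 4 wpt than at Post-IS, against 14.4% of genes, and 4 of 8 at 8 wpt, against 14.6%. Of the 8, 0 were higher at either time, whereas 32.7% of all genes were at 4 wpt and 32.6% at 8 wpt. BTG1 had ratios of 0.579 (0.515 to 0.653) at 4 wpt and 0.543 (0.481 to 0.614) at 8 wpt, and BCL2 had ratios of 0.425 (0.253 to 0.763) and 0.358 (0.209 to 0.653). The BTG1 ratio at 8 wpt was 0.671, short of 1.5-fold, among T cells without a cytotoxic granule UMI. BAX was lower at 4 wpt at 0.561 (0.376 to 0.872), but its ratio was 0.933 among T cells without a monocyte marker UMI. That subset left out 44.5% of 4 wpt and 29.6% of Post-IS T cells, whose median depths were 3626 and 1257 UMIs before this. BAX had 26 UMIs in all Post-IS T cells, and the part of depth in the shift was not tested. MDM2 and BCL2L11 passed 1.5-fold at 8 wpt on 5 and 3 Post-IS UMIs, with intervals that held 1. MCL1 had ratios of 0.945 at 4 wpt and 0.946 at 8 wpt, with intervals of 0.712 to 1.28 and 0.710 to 1.29.

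In MS4A7+ monocytes 3 of 7 measured members were lower at 4 wpt, against 15% of genes, and 1 was higher, against 19.2%. BTG1 was lower at 0.337 (0.277 to 0.410), BCL2L11 at 0.354 (0.133 to 0.965) and BAX at 0.645 (0.400 to 1.07). BCL2L11 had 11 UMIs at 4 wpt and 9 at Post-IS, and its ratio was 0.670 in thinned cells, short of 1.5-fold. The BAX ratio was 0.697, also short, under the TMM scaling described below. GADD45B had 19 UMIs at 4 wpt and 1 UMI at Post-IS, a ratio of 5.50 with an interval of 0.874 to 228. At 8 wpt 3 of 5 were lower, against 22.2% of genes, and 0 higher, against 12.3%: BTG1 at 0.264 (0.191 to 0.358), MDM2 at 0.258 (0.0856 to 0.657) and CDKN1A at 0.451 (0.190 to 1.00).

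**Figure D4:**
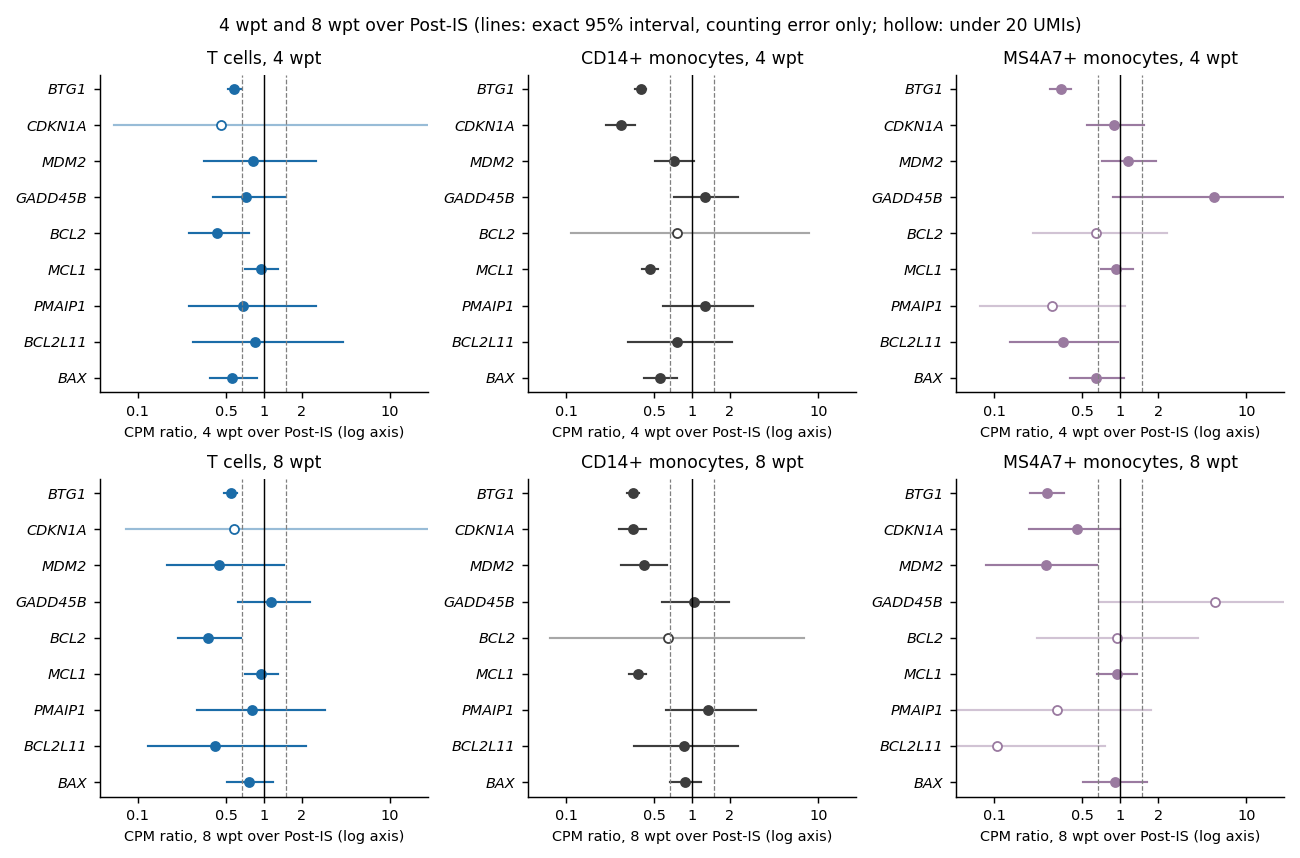
CPM ratio of 4 wpt (upper row) and 8 wpt (lower row) over Post-IS for each member (log axis) in 3 cell classes, with exact 95% intervals for counting error as lines, hollow points for members under 20 UMIs and dashed lines at 1.5-fold. BTG1 lies left of the lower dashed line in all 6 panels, between 0.264 and 0.579, whereas MCL1 does so in CD14+ monocytes and not in the other 2 classes.

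The lymphocytes taken after transplantation were also set against Pre-IS. In T cells 1 of 8 measured members was higher and 0 lower at 4 wpt, against 13.3% and 7.15% of genes, and 0 were higher and 1 lower at 8 wpt, against 9.08% and 5.52%, so these counts were near those of all genes. The higher one was MDM2, with 28.4 CPM at 4 wpt (90 UMIs) and 14.1 CPM at Pre-IS (19 UMIs), a ratio of 2.02 (1.22 to 3.504) that came to 1.47 in thinned cells. The lower one was BCL2L11, with 8.50 CPM at 8 wpt and 20 CPM at Pre-IS, a ratio of 0.425 (0.223 to 0.794). BTG1 and BCL2 in T cells had ratios of 0.965 (0.911 to 1.02) and 1.45 (1.03 to 2.08) at 4 wpt and of 0.904 (0.850 to 0.962) and 1.22 (0.842 to 1.80) at 8 wpt.

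In NK cells 2 of 7 measured members were higher and 0 lower at 4 wpt, against 17.5% and 9.31% of genes, and 2 of 5 were lower and 0 higher at 8 wpt, against 6.89% and 15.4%. BCL2L11 had 24 UMIs at 4 wpt and 1 at Pre-IS (22.9 and 2.29 CPM), a ratio of 9.98 with an interval of 1.63 to 410.5. BCL2 had 19.1 CPM at 4 wpt (20 UMIs) and 11.5 CPM at Pre-IS (5 UMIs), a ratio of 1.66 (0.606 to 5.67). That ratio was 0.476 in thinned cells, which hold fewer UMIs still. BTG1 was lower at 8 wpt, at 0.627 (0.536 to 0.734), and MDM2 had a ratio of 0.534 (0.250 to 1.18).

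In B cells 3 of 8 measured members were higher and 2 lower at 4 wpt, against 15.8% and 12.4% of genes. MDM2 had 66.3 CPM at 4 wpt (32 UMIs) and 27.6 CPM at Pre-IS (16 UMIs), a ratio of 2.40 (1.28 to 4.69), and MCL1 had 458 and 299 CPM in those libraries, a ratio of 1.53 (1.25 to 1.88). BCL2 passed 1.5-fold at 1.57 (0.718 to 3.52), BTG1 was lower at 0.656 (0.523 to 0.820) and GADD45B at 0.623 (0.302 to 1.23). In thinned cells the BTG1 ratio was 0.906 and the GADD45B ratio 2.05, so neither call held. At 8 wpt 2 of 6 members were lower and 0 higher, against 11.8% and 11.3% of genes, and both CDKN1A at 0.587 (0.319 to 1.04) and GADD45B at 0.585 (0.262 to 1.22) had intervals that held 1. Naive B cells had 260 CPM of MCL1 at 8 wpt (190 to 347, 46 UMIs) and 120 CPM at Pre-IS (72.1 to 187, 19 UMIs), and the intervals did not overlap.

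Of a list of 48 further p53 target and apoptosis genes, also chosen with earlier results of these data known, 44 were analysed here. At Post-IS over Pre-IS, 6 of 29 measured genes were higher and 6 lower in T cells, against 14.4% and 28.4% of all genes. In CD14+ monocytes 5 of 23 were higher and 2 lower, against 16.6% and 13%, and in MS4A7+ monocytes 2 of 6 were higher and 0 lower, against 18.4% and 12.9%. Their median log2 ratios, 0.12, 0.15 and 0.01, were nearer to those of all genes than the members' were. SESN3, a stress-induced inhibitor of mTORC1 signalling, had 83.5 CPM in Post-IS T cells and 18.5 CPM in Pre-IS T cells, a ratio of 4.51 (2.06 to 9.31), and 45.7 CPM at 4 wpt, a ratio to Pre-IS of 2.47 (1.61 to 3.94). BCL2A1, a guardian of the BCL2 family induced by NF-kB, had 98.1 CPM in Post-IS and 23.7 CPM in Pre-IS CD14+ monocytes, a ratio of 4.14 (2.19 to 8.37), and 27.9 CPM at 8 wpt, a ratio to Post-IS of 0.284 (0.172 to 0.465). BTG2, a p53 target related to BTG1, had 524 CPM in Post-IS and 471 CPM in Pre-IS CD14+ monocytes, a ratio of 1.11 (0.929 to 1.33), and was lower at 4 wpt, with 266 CPM and a ratio to Post-IS of 0.508 (0.428 to 0.605). PLK3, a stress-responsive kinase, had 6 UMIs at 4 wpt and 14 at Post-IS in CD14+ monocytes, a ratio of 0.163 (0.0515 to 0.453).

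Genes whose levels ran closest to a member were found by Pearson's r of log2(CPM + 10) over the 20 sums of at least 50 cells, among 2776 genes averaging at least 50 CPM. These sums span several cell labels and share libraries and depths, so r is a description and also reflects differences between labels. CXCR4, a chemokine receptor, was closest to BTG1 at 0.89, followed by SSBP2 and NSRP1 at 0.68 each. DPYSL2 was closest to CDKN1A at 0.94, TMEM219 to GADD45B at 0.88, OTUD5 to BCL2 at 0.81 and UBE2B to MCL1 at 0.85. EIF2S2 was closest to PMAIP1 at 0.79, WAPL to BCL2L11 at 0.78 and HM13 to BAX at 0.83. Between members, CDKN1A ran with MDM2 at 0.80 and with MCL1 at 0.74, whereas BTG1 and CDKN1A had an r of -0.29.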

How the data were processed

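Per the labels' protocols, the libraries were made with the 10x Genomics 5' V1 kit. The submitters' processing notes name Cell Ranger 3.1.0, Seurat 3.2.3 and Mmul_10. The authors deposited raw UMI counts per gene and cell and a cell type label per cell, and how cells were filtered is not given in the sources used here. Names for 400 of the 2559 rows that lack a symbol came from the reference's pairs of identifiers and symbols. The members and all lists were chosen with earlier results of these data known.

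Counts were summed per label and library (Python 3.11.15, scipy 1.17.1), scaled to CPM and compared as ratios with exact conditional binomial 95% intervals. Medians over genes add 0.5 UMIs to each sum. Library depth was 791030 to 6910432 UMIs. A count of 0 was kept as 0 in levels, with an exact Poisson upper bound. A floor of 3 counts was computed beside each level and replaced no value. Intervals treat UMIs as independent and leave out differences between animals, libraries and cells. The code was tested on simulated data. Genes of the wider list are named where the interval bound nearest to 1 lay beyond 1.5-fold, up to 3 per direction, class and comparison reported. The 3 genes most like each member were sought, and the closest is given, except for MDM2, for which it is not reported here. Alternatives were TMM scaling (edgeR 4.0.16, used for scaling only), equal weight per cell, thinning to 500 UMIs, totals without abundant gene families, minimums of 50 UMIs or none, and leaving out possible doublets or cells whose markers disagreed with their label. Possible doublets were otherwise kept. No sequences are shown.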

Additional observations from a re-analysis of the deposited data

How the results depend on the processing

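With 1 library per group no result has a replicate check, and depth limits the Post-IS values most. No paired analysis was possible because each group is 1 library and no test was made. Of 126 recomputed counts of members past 1.5-fold, 97 stayed within 1.5 times the reported count. Higher and lower members were counted together, so these counts do not show direction. TMM scaling, totals without abundant gene families and leaving out cells whose markers disagreed with their label moved none of the 15 counts beyond that. TMM shifted the all-gene median by over 0.1 in 3 comparisons, most at 8 wpt over Post-IS in MS4A7+ monocytes (0.11 under TMM, -0.08 without). Of 679 member ratios, 653 stayed, 23 moved and 3 reversed, all 3 in thinned cells against Pre-IS: BCL2 in NK cells at 4 wpt (0.476, reported 1.66), and GADD45B in B cells at 4 wpt (2.05, reported 0.623) and at 8 wpt (1.32, reported 0.585). The cause was not tested.

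A minimum of 50 UMIs leaves fewer members to count. Percentages in this paragraph, except the lymphocyte share, are of all measured genes called under the same setting, higher and lower together. That minimum gave 2 in T cells for Post-IS over Pre-IS (reported 4), beside 33.5%. For 4 wpt over Post-IS it gave 2 in MS4A7+ monocytes (reported 4), beside 24.3%. For 8 wpt over Post-IS it gave 2 in T cells (reported 4) and 1 in MS4A7+ monocytes (reported 3), beside 39.8% and 25.3%. Against Pre-IS at 4 wpt it gave 0 in NK cells (reported 2) and 2 in B cells (reported 5), beside 18.8% and 19.5%. At 8 wpt it gave 0 in T cells (reported 1), beside 8.68%. It gave 1 in NK cells and 1 in B cells (reported 2 each) there, beside 13.9% and 13.3%. No minimum gave 5 in MS4A7+ monocytes for Post-IS over Pre-IS (reported 3), beside 58.5% of all genes. For 8 wpt over Post-IS it gave 6 in them (reported 3), beside 61.9%. For 8 wpt over Pre-IS it gave 4 in NK cells and 5 in B cells (reported 2 each), beside 42.5% and 43.2%. Over Post-IS, thinned cells gave 2 in MS4A7+ monocytes at 4 wpt, beside 37.4%. At 8 wpt they gave 2 in T cells and 1 in MS4A7+ monocytes, beside 52.1% and 35.2%. Over Pre-IS they gave 0 in NK cells and 2 in B cells at 4 wpt, beside 29.1% and 38.5%. At 8 wpt they gave 0 in T cells and 1 in B cells, beside 21.1% and 29.4%. For 4 wpt over Pre-IS, equal weight per cell gave 2 in T cells (reported 1), beside 23.7%. It gave 1 in NK cells and 3 in B cells there, beside 29% and 32.8%. Leaving out possible doublets gave 2 in MS4A7+ monocytes for 4 wpt over Post-IS, beside 35.1%. It gave 3 in B cells for 4 wpt over Pre-IS, beside 28.2%. For 4 wpt over Post-IS, T cells without a monocyte marker UMI and T cells without a cytotoxic granule UMI gave 5 each (reported 3), beside 51.1% and 48%. For 8 wpt over Post-IS they gave 2 and 1 (reported 4), beside 51% and 41.9%. The 2 subsets were chosen after seeing the data. The Post-IS lymphocyte share was 29.9% among cells of at least 1000 UMIs (reported 23.1%).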

Other observations

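Under the proliferating NK and T label, which held 41 cells at 4 wpt and 30 at 8 wpt, BAX had 236 CPM at 4 wpt (186 to 296) and 313 CPM at 8 wpt (228 to 421), which was 2.32 times (1.78 to 2.996) and 2.28 times (1.62 to 3.13) the level of T cells in the same libraries. At 4 wpt 1 cell held 15 of the 75 BAX UMIs, and the level without it was 195 CPM (149 to 251), against 101.5 CPM in T cells. At 8 wpt 1 cell held 6 of 44, and the level without it was 279 CPM (197 to 382.5). BTG1 was 3.96-fold and 5.13-fold lower in the proliferating cells than in T cells, at 305 and 221 CPM. CDKN1A had 44.0 CPM there at 4 wpt (14 UMIs, 5 of them in 1 cell, and 29.2 CPM without that cell), against 3.15 CPM in T cells (10 UMIs). MCL1 had 217 CPM at 4 wpt and 228 CPM at 8 wpt, ratios to T cells of 0.660 (0.510 to 0.843) and 0.693 (0.470 to 0.987).

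Dendritic cells, with 30, 23 and 29 cells at Pre-IS, 4 wpt and 8 wpt, had 206 CPM of CDKN1A at 4 wpt (145 to 283, 37 UMIs), against 29.5 CPM at Pre-IS (8.04 to 75.5, 4 UMIs), and 34.1 CPM at 8 wpt (11.1 to 79.7, 5 UMIs). BTG1 had 278 CPM at 4 wpt (206 to 366), against 103 CPM at Pre-IS (56.4 to 173), and 116 CPM at 8 wpt (67.6 to 186). At 4 wpt 1 cell held 23 of the 37 CDKN1A UMIs and 30 of the 50 BTG1 UMIs. Without it, a setting chosen after seeing the data, CDKN1A had 81.4 CPM (44.5 to 136.5), whose interval overlaps those of the other libraries, and BTG1 had 116 CPM (71.0 to 179.5), close to the level at Pre-IS and 8 wpt. BCL2L11 had 0 UMIs in all 3 of these sums, whose upper bounds were 20.5 to 27.2 CPM.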
